A study of Homo sapiens with 17 samples.

Results

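A group of 10 genes of fatty acid synthesis, elongation and desaturation, with LPIN1 of glycerolipid assembly among them, was followed through growth arrest and transformation of human BJ fibroblasts. They are FASN, ACACA, ACLY, ACSS2, SCD, ELOVL5, ELOVL6, FADS1, FADS2 and LPIN1. They were taken from the table by gene symbol, and all 10 were found among its 9699 genes, each as 1 transcript. BJ cells are a line of human skin fibroblasts, here immortalized with telomerase (hTERT). RNA-Seq measured transcript levels, and Ribo-Seq, which sequences the mRNA fragments protected by ribosomes, measured translation, in 17 libraries of 5 conditions.

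Proliferating cells were grown in normal medium with 10% serum (3 RNA-Seq and 3 Ribo-Seq libraries). Quiescent cells were deprived of serum (2 and 2 libraries). Pre-senescent cells expressed hTERT and a tamoxifen-inducible RASG12V, a permanently active RAS, and had 4-OHT-tamoxifen for 5 days (2 RNA-Seq libraries, 1 Ribo-Seq library). Senescent cells carried the same constructs and had 4-OHT-tamoxifen for 14 days (1 and 1). The cells labelled transformed expressed hTERT, a knockdown (KD) of p16INK4A among other changes, SV40 small T and RASG12V from the retrovirus pBabe-puro-RASG12V (1 and 1). Whether the proliferating and quiescent cells carried a RAS construct or a vector, and whether they had tamoxifen, is not given in the sources used here. The libraries were sequenced in 2 runs, and each condition was compared with the proliferating cells of its own run: quiescence and pre-senescence in run 1, senescence and the library labelled transformed in run 2.

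The table gives 1 column per condition, run and assay, in FPKM (fragments per kilobase of transcript, scaled to the reads of the library), so levels can be compared between genes per length. Of its 12 columns, 5 hold the authors' combined value of 2 libraries and 7 hold 1 library. Differences therefore have no replicate check and no p-value. A gene was called when it differed 2-fold or more, a log2 difference of at least 1 in either direction. The only measure of spread is the difference between the proliferating columns of run 1 and run 2, which holds both culture and run. In RNA and TE it also holds the read layout. The study lists its run 1 RNA libraries as paired-end and those of run 2 as not. The table gives no read counts, so no counting error is attached to a value here. Each statement on the library labelled transformed, on pre-senescent translation and on senescence rests on 1 library. In bulk RNA, more cells expressing a gene and more transcript per cell cannot be told apart.

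Several features of the libraries touch the results. For senescence and run 2 proliferation, the title and the condition field of the Ribo-Seq libraries give opposite conditions. The titles were followed here: across all genes, the Ribo-Seq library titled senescence had r = 0.897 with senescent RNA and 0.780 with run 2 proliferating RNA, on log2 values. The library titled proliferation had r = 0.875 with run 2 proliferating RNA and 0.796 with senescent RNA. In the library labelled transformed, where p16INK4A is labelled as knocked down, CDKN2A RNA was 12.6 FPKM, above the 6.75 of its control and below the 17.2 of run 1 proliferation. Its Ribo-Seq level was 5.51 FPKM against 8.92, the lowest of the 6 columns (the others 6.33 to 33.0). The table has 1 CDKN2A transcript, and the locus also encodes ARF. HRAS RNA was 312 FPKM there and 1254 to 2415 in the other 5 columns, proliferating cells included. Fibroblast genes were present throughout: 14 of 15 listed markers had a row, with summed RNA between 5979 and 11181 FPKM. Of 10 adipocyte markers only PPARG had a row, at 3.20 to 16.2 FPKM, and of 6 endothelial markers only TIE1 did, at 1.00 to 6.56. The 2 leukocyte markers with a row summed to 39.3 to 133 FPKM, nearly all of it CD68, as CD14 was at 1.00 to 1.67. The 3 epithelial markers with a row summed to 115 to 276 FPKM. The part of these genes in the results below was not tested.

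Fatty acid synthesis turns acetyl-CoA into palmitate in the cytosol, and the products are then lengthened and given double bonds at the endoplasmic reticulum. The supply of acetyl-CoA comes from citrate through ACLY or from acetate through ACSS2. Many of these genes are classical targets of the sterol regulatory element-binding proteins (SREBPs), transcription factors that are held in the endoplasmic reticulum membrane when sterols are plentiful and released when they are scarce. Fibroblasts in culture take much of their lipid from serum.

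The DNA just before the transcript start is where SREBPs and their partners NF-Y and Sp1 are known to bind in several of these genes. Promoter sequences came from RefSeq (GRCh38.p14), where 9 of the 10 genes had 16 windows (the window set used here holds no entry for FASN). Each window is the 250 bases before an annotated start. Shown are SCD, which had the largest quiescence difference, ACLY and FADS1, which were also 2-fold or more higher there in RNA, and ELOVL5, the one gene that was not. Capitals mark the letters searched on both strands: CCAAT (NF-Y), GGGCGG (Sp1) and CACGTG (E-box), and matches may overlap.
SCD, chr10:100346983-100347232, plus strand: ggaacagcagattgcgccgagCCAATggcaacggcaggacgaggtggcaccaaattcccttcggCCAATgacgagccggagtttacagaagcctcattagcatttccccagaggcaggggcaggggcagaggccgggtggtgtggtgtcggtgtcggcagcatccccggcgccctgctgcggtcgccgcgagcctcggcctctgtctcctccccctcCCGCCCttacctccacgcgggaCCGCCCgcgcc
ACLY, chr17:41919023-41919272, minus strand: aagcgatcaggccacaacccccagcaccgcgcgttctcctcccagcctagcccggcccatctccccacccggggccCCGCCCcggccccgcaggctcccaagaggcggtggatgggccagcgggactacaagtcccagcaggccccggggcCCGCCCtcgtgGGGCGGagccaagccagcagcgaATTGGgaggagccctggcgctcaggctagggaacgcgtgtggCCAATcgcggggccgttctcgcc
FADS1, chr11:61817004-61817253, minus strand: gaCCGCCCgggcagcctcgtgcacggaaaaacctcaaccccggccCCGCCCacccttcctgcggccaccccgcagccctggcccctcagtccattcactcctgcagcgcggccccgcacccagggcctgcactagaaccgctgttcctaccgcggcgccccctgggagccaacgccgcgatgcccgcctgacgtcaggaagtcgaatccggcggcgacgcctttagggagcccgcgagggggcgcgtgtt
ELOVL5, chr6:53348951-53349200, minus strand: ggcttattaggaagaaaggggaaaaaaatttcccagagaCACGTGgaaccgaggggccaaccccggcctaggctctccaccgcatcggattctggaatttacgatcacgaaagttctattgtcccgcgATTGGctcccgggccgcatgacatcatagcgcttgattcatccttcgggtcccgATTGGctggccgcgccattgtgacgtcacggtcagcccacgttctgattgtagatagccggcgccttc

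In the SCD window, CCAAT matches began 229 and 186 bases before the start and GGGCGG matches 33 and 11 bases before it. The ACLY window held CCAAT at 65 and 23 bases and GGGCGG at 174, 99 and 88 bases. FADS1 had GGGCGG at 248 and 205 bases and no CCAAT. ELOVL5 had CCAAT at 122 and 68 bases and was the one gene with CACGTG, at 211 bases. Over the 16 windows, 7 held CCAAT (5 genes, 32.0% of all 35116 windows of this length) and 12 held GGGCGG (8 genes, 42.6% of all). These shares are per window, not per gene. Windows of the same gene can overlap, as those of ACLY do, so that the same match is counted again. The sterol regulatory element searched as TCACNCCAC was in 0 of the 16 and in 0.883% of all windows. CACGTG was in 6.34% of all. Such matches are a description of letters, not of binding, and their relation to the levels was not tested.

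ACLY (ENST00000401700), ATP citrate lyase, had the highest RNA level of the 10 genes in every column but quiescence. Its RNA stood at 120 FPKM in run 1 proliferation, 246 in quiescence and 130 in pre-senescence, then at 113 in run 2 proliferation, 139 in senescence and 113 in the library labelled transformed. Its Ribo-Seq level was 178, 429 and 210 in the same order for run 1, and 174, 252 and 165 for run 2. Quiescence was alone above the rest in both assays, and the 2 proliferating columns lay within 1.06-fold in RNA and 1.02-fold in Ribo-Seq. The RNA difference in quiescence was 2.06-fold and the Ribo-Seq difference 2.41-fold, the smallest of the called members in either assay.

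ACSS2 (ENST00000253382), the cytosolic acetyl-CoA synthetase that uses acetate, was a low transcript outside quiescence. Its RNA was 10.4, 66.8 and 10.5 FPKM in run 1 (proliferation, quiescence, pre-senescence, the order used from here) and 9.58, 10.3 and 12.4 in run 2 (proliferation, senescence, the library labelled transformed). Ribo-Seq gave 9.95, 76.1 and 13.1, then 13, 10.3 and 14.8. Only quiescence stood apart, 6.45-fold above its control in RNA and 7.64-fold in Ribo-Seq, and the other 5 columns lay between 9.58 and 12.4 FPKM of RNA.

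ACACA (ENST00000353139), acetyl-CoA carboxylase alpha, makes malonyl-CoA, the committed step. Its RNA was 18.4, 45.2 and 21.6 FPKM in run 1 and 14.1, 12.6 and 21.6 in run 2. Ribo-Seq gave 15.1, 45.0 and 26.3, then 11.9, 16.3 and 23.9. Quiescence was highest in both assays, 2.45-fold in RNA and 2.97-fold in Ribo-Seq.

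FASN (ENST00000306749), the multi-enzyme synthase that builds palmitate, differed most in RNA between the 2 controls. Its RNA was 69.2, 293 and 78.8 FPKM in run 1 and 33.6, 56.1 and 84.4 in run 2. Its Ribo-Seq level was 96.6, 765 and 199, then 59.4, 88.1 and 132. Run 2 proliferation was the lowest column in both assays, 2.06-fold below run 1 in RNA. Quiescence was 4.23-fold higher in RNA and 7.92-fold higher in Ribo-Seq. Against the control of the other run, these differences were 3.12 and 3.69 on the log2 scale, where they were 2.08 and 2.98 within the run.

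SCD (ENST00000370355), stearoyl-CoA desaturase, puts the first double bond into saturated fatty acids and makes oleate. Its RNA was 49.4, 595 and 54.5 FPKM in run 1 and 58.0, 45.8 and 60.1 in run 2. Its Ribo-Seq level was 97.8, 1424 and 167, then 178, 145 and 156. The quiescent column was 12.1-fold above its control in RNA and 14.6-fold in Ribo-Seq, and it became the most abundant of the 10 genes there. In each assay, 5 of all genes tested had a larger increase. The other 5 columns lay between 45.8 and 60.1 FPKM of RNA. The 2 controls differed 1.82-fold in Ribo-Seq, and against the other control the Ribo-Seq difference in quiescence was 3 rather than 3.86 on the log2 scale.

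FADS2 (ENST00000278840) and FADS1 (ENST00000350997) are the delta-6 and delta-5 desaturases of polyunsaturated fatty acid synthesis, and they are neighbours on chromosome 11. FADS2 RNA was 47.3, 349 and 43.0 FPKM in run 1 and 68.2, 54.5 and 80.0 in run 2, and its Ribo-Seq level was 78.2, 606 and 99.7, then 163, 128 and 129. Its quiescent column was 7.37-fold higher in RNA and 7.75-fold higher in Ribo-Seq. FADS1 RNA was 43.2, 153 and 45.7 FPKM in run 1 and 28.5, 29.2 and 46.3 in run 2, and its Ribo-Seq level was 40.5, 129 and 48.8, then 28.4, 29.0 and 41.6. In FADS1 the quiescent differences were 3.55-fold in RNA and 3.18-fold in Ribo-Seq. The controls differed in opposite directions for the 2 neighbours. FADS2 was 1.44-fold higher in run 2 in RNA and 2.08-fold higher in Ribo-Seq, while FADS1 was 1.51-fold lower in RNA and 1.43-fold lower in Ribo-Seq. With the control of the other run, the quiescence difference of FADS2 was 2.35 in RNA and 1.90 in Ribo-Seq on the log2 scale, against 2.88 and 2.95 within the run. For FADS1 it was 2.43 and 2.18, against 1.83 and 1.67.

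ELOVL6 (ENST00000394607), which elongates palmitate towards stearate, had the lowest RNA level of the 10 genes in 6 of 6 columns. Its RNA was 3.95, 8.47 and 6.16 FPKM in run 1 and 4.05, 4.09 and 6.41 in run 2. In Ribo-Seq it was at 9.80, 15.2 and 11.8, then 9.85, 15.4 and 14.1. The 2 controls were within 1.03-fold of each other in RNA. Quiescence was 2.14-fold higher in RNA and 1.55-fold higher in Ribo-Seq, so it was called in RNA alone.

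ELOVL5 (ENST00000541407), which elongates polyunsaturated fatty acids, was called in no comparison. Its RNA was 66.7, 87.6 and 54.5 FPKM in run 1 and 71.3, 49.1 and 65.2 in run 2. In Ribo-Seq it was at 130, 124 and 99.3, then 145, 155 and 164. Its range over the 6 RNA columns was the narrowest among the 10, and in quiescence it was 1.31-fold higher in RNA and 1.05-fold lower in Ribo-Seq.

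LPIN1 (ENST00000449576), a phosphatidate phosphatase that makes the diacylglycerol into which fatty acids are built, was the one member called in senescence. Its RNA was 11.7, 54.8 and 22.4 FPKM in run 1 and 13.3, 29.4 and 17.7 in run 2. Its Ribo-Seq level was 15.3, 60.5 and 23.7, then 13.6, 31.0 and 22.9. In both assays every other condition lay above both controls, quiescence first and senescence next. Quiescence was 4.68-fold higher in RNA and 3.96-fold higher in Ribo-Seq. The controls themselves were 1.13-fold apart in RNA and 1.12-fold in Ribo-Seq.

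Serum depletion asks how the cells respond when lipid and growth factors from serum are withdrawn. In quiescence, 9 of the 10 genes were 2-fold or more higher in RNA and 0 were lower, where 4.23% of the 9198 genes tested were higher and 2.50% were lower. The median of the 10 was a log2 difference of 1.95, beside -0.01 for all genes. In Ribo-Seq, 8 were higher and 0 lower, against backgrounds of 9.59% and 8.44%, with a median of 1.83 beside -0.09. The quiescent RNA level lay above both proliferating columns for 10 of 10 genes and the Ribo-Seq level for 9 of 10, ELOVL5 being below both. Of all genes tested, 32.8% lay above both in RNA and 29.7% in Ribo-Seq. With the control of the other run, the same counts of 9 in RNA and 8 in Ribo-Seq were called (4.68% and 9.71% of all genes higher).

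Within the run, the quiescence RNA differences fell in the following order. The desaturases SCD and FADS2 and the acetate enzyme ACSS2 were highest, at 3.59, 2.88 and 2.69 on the log2 scale. LPIN1, FASN and FADS1 followed at 2.23, 2.08 and 1.83. ACACA, ELOVL6, ACLY and ELOVL5 came last at 1.30, 1.10, 1.04 and 0.39. Neighbours such as FADS2 and ACSS2, or ELOVL6 and ACLY, lay closer to each other than the distance between the controls for at least 1 of the pair, so their order is not resolved. The order also turned with the control. Against run 2 proliferation SCD stayed highest at 3.36, but FASN stood at 3.12, above FADS1 at 2.43 and FADS2 at 2.35. The spread within quiescence is not known, as the table gives 1 combined column for it.

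At 5 days of RAS induction, in pre-senescence, 0 of the 10 genes were called in RNA in either direction (background 1.89% higher, 2.13% lower), with a median of 0.13 beside 0.04 for all genes. LPIN1 came closest, at 1.92-fold, and ELOVL6 was at 1.56-fold, while ELOVL5 was 1.22-fold lower. In Ribo-Seq, FASN was called at 2.06-fold, 1 of 10 genes against a background of 7.55% higher and 10.9% lower, and the median was 0.37 beside -0.13. ACACA was at 1.74-fold and SCD at 1.71-fold in Ribo-Seq, the latter less than the 1.82-fold between its controls. Against the control of the other run, FASN was called in RNA as well, at 1.23 on the log2 scale in place of 0.19, and its Ribo-Seq difference was 1.74 in place of 1.04.

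At 14 days of RAS induction, 9 of the 10 genes stayed within 2-fold of their control. Among all genes, 7.42% were called higher and 13.6% lower in RNA, and 11.6% and 17.4% in Ribo-Seq. Of the 10, LPIN1 alone was called, higher in both assays, at 2.21-fold in RNA and 2.28-fold in Ribo-Seq. With a cut-off that slides with the level of a gene, the LPIN1 call ended in both assays, leaving 0 of 10 in each. The medians were 0.02 in RNA and 0.27 in Ribo-Seq, beside -0.01 and -0.12. FASN was at 1.67-fold in RNA and 1.48-fold in Ribo-Seq against a control in which it was lowest. Compared with run 1 proliferation it was at -0.30 and -0.13 on the log2 scale. ELOVL5 was 1.45-fold lower in RNA and 1.07-fold higher in Ribo-Seq. Fibroblast and cell cycle genes differed widely in the same library. In RNA, 11 of 14 fibroblast markers were called lower (6 against run 1 proliferation, where 18.2% of all genes were lower). So were 13 of 13 cell cycle markers. COL1A1, a main collagen of these cells, was at 51.6 FPKM against 1328 (371 in run 1 proliferation). The part of these markers in the values of the 10 genes was not tested. Following the condition fields in place of the titles exchanges the 2 Ribo-Seq libraries. This by itself turns the sign of every senescent Ribo-Seq difference, so that LPIN1 would stand at -1.19, opposite to its RNA.

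In the library labelled transformed, FASN was called higher in RNA (2.51-fold, 1 of 10 genes, background 5.11% higher and 5.54% lower). In Ribo-Seq, FASN was called at 2.22-fold and ACACA lay just at the threshold with 2.00-fold (2 of 10 genes, background 5.52% higher and 7.70% lower). Medians were 0.39 and 0.35, beside 0.09 and 0.01. FADS1 at 1.62-fold, ELOVL6 at 1.58-fold and ACACA at 1.54-fold came next in RNA, and ACLY and SCD were at 1.00-fold and 1.04-fold. These calls depended on the control. Against run 1 proliferation FASN stood at 0.29 in RNA and 0.45 in Ribo-Seq, and 0 of the 10 genes were called in either assay. With the condition fields followed in place of the titles, FASN and ACACA stood at 0.58 and 0.55 in Ribo-Seq, and 0 of 10 were called there. The RNA of 8 of the 10 genes lay above both proliferating columns (36.3% of all genes tested), but by as little as 0.05 for SCD and 0.10 for FADS1 on the log2 scale. The Ribo-Seq level of 7 of 10 did so (31.8% of all). Of 13 cell cycle markers, 0 were called there in RNA, and 7 were lower against run 1 proliferation. Of 14 fibroblast markers, 2 were higher and 3 lower, and 5 and 2 against run 1 proliferation. Of 14 RAS response genes, 10 were higher and 1, HRAS, was lower, and 8 and 1 against run 1 proliferation. Against that column, 6.65% of all genes were higher and 4.80% lower in RNA. The part of these marker and response genes in the values of the 10 genes was not tested.

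Set side by side, senescent cells and the library labelled transformed both carry RASG12V but differ in how it is expressed and in the other constructs. None of the 10 genes was called between them. In RNA 8 of 10 were lower in senescence, with a median of -0.48 beside -0.09 for all genes, the largest being ACACA (1.71-fold lower) and FADS1 (1.58-fold lower), and LPIN1 was 1.66-fold higher. The background was 8.45% higher and 15.8% lower in RNA, and 13.3% and 18.1% in Ribo-Seq, where the median of the 10 was -0.10 beside -0.10. The background in translation efficiency was 1.82% and 2.27%.

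Between the proliferating columns, run 2 against run 1, FASN was called lower in RNA (5.08% of all genes higher, 3.14% lower) and FADS2 higher in Ribo-Seq (10.9% higher, 8.63% lower). In translation efficiency none of the 10 was called (4.10% and 2.95%). The medians of the 10 were -0.02 in RNA, -0.01 in Ribo-Seq and 0.07 in translation efficiency. In RNA, 5.08% of all genes were thus higher between 2 columns of the same condition, and 5.11% in the library labelled transformed.

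**Figure D1:**
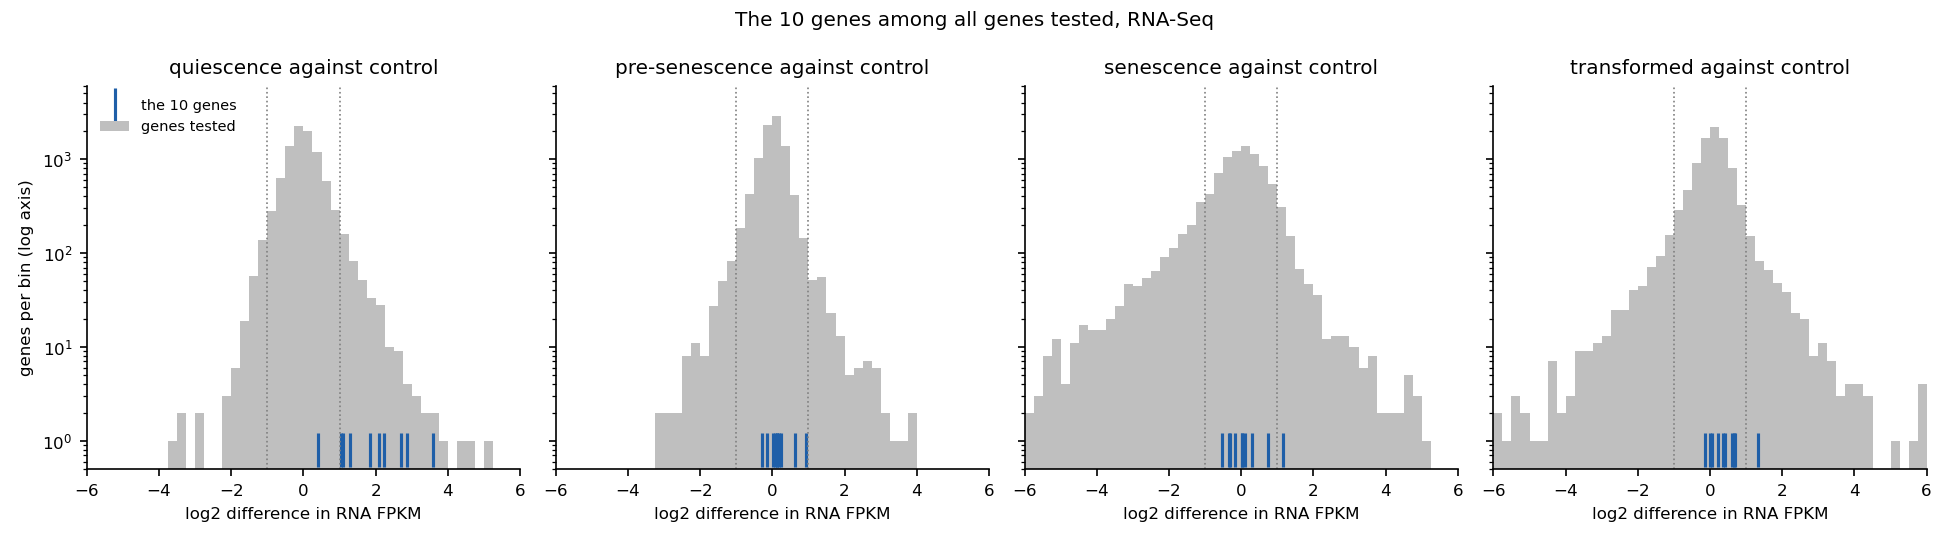
Histograms of the log2 RNA difference over all genes tested (grey, log count axis, values beyond 6 placed in the end bins), with a blue tick for each of the 10 genes and dotted lines at 2-fold. In quiescence 9 ticks lie at 2-fold or more higher, where 4.23% of all genes do and 2.50% are as far lower. In the other 3 panels 0, 1 and 1 ticks do.

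Translation efficiency (TE) was taken as the ratio of Ribo-Seq to RNA FPKM, on the log2 scale. Most of the 10 genes kept their side of the all-gene median over the 6 columns. FASN, ACLY, SCD, ELOVL5, ELOVL6 and FADS2 lay above the median of all genes in 6 of 6 columns, and FADS1 lay below it in 6 of 6. The share of all genes that keep the same side throughout was not computed, so this is not shown to be particular to the 10. SCD ranged from 0.99 to 1.66, FADS2 from 0.69 to 1.26 and ELOVL6 from 0.84 to 1.91. FADS1 ranged from -0.25 to 0.09 and LPIN1 from 0.04 to 0.38, while the median of all genes stayed between 0.22 and 0.40. The neighbours FADS1 and FADS2 thus had similar RNA levels in run 1 proliferation, 43.2 and 47.3 FPKM, and Ribo-Seq levels of 40.5 and 78.2.

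With the titles followed and no centring, no TE difference of the 10 genes reached 2-fold in any comparison. The backgrounds were 2.06% higher and 3.25% lower in quiescence, 3.65% and 6.91% in pre-senescence, 2.36% and 5.65% in senescence and 0.666% and 1.36% in the library labelled transformed. The medians of the 10 were 0.15, 0.28, 0.04 and -0.15, beside -0.07, -0.15, -0.05 and -0.07. FASN was the largest in quiescence and in pre-senescence, at 1.87-fold and 1.81-fold, with a TE of 0.48 in the control and 1.38 and 1.33 in the conditions. The controls of FASN differed by 0.34 in TE, and with the other control the quiescence difference was 0.56 in place of 0.90. In quiescence ELOVL5 and ELOVL6 were 1.37-fold and 1.38-fold lower in TE, and they were at their highest TE in senescence, 1.65 and 1.91. With the run 2 control, the TE differences of SCD, FADS2 and ACSS2 in quiescence turned from 0.27, 0.07 and 0.24 to -0.36, -0.46 and -0.26. With the condition fields followed in place of the titles, LPIN1 and FASN stood at -2.33 and -1.31 in senescent TE, where 21.8% of all genes were lower. With the median of all genes set to 0, 1 gene was higher in pre-senescent TE (5.60% of all).

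The genes around these enzymes were read from lists of related functions. Sterol synthesis and uptake, the other large branch of SREBP targets, had 21 of 22 genes tested called higher and 0 lower in quiescent RNA, with a median of 2.30, and the same 21 were called with either control. HMGCS1, which makes HMG-CoA, stood at 93.2 against 6.82 FPKM, and MSMO1, a sterol methyl oxidase, at 85.5 against 8.46. TM7SF2, a sterol reductase, stood at 20.1 against 1.00, where 1 is the lowest value the table gives. In the other comparisons the sterol list had 3 of 21 higher in pre-senescence, 6 of 22 in senescence and 3 of 22 in the library labelled transformed, and 0 lower in each. The shares of all genes higher were 1.89%, 7.42% and 5.11%. Of the sterol calls, 1, 4 and 2 were also made against the control of the other run. That control gave 2, 6 and 7 sterol genes higher and 0, 2 and 0 lower. Against it, 5.31%, 12.4% and 6.65% of all genes were higher in RNA and 6.96%, 18.2% and 4.80% lower. In Ribo-Seq the sterol list had 22 of 23 higher in quiescence and 9 of 22 in pre-senescence, 0 lower in either (9.59% and 7.55% of all genes higher). Of 22 tested, 9 were higher and 1 lower in senescence, and 0 higher and 1 lower in the library labelled transformed (11.6% and 5.52% of all higher). Against the control of the other run, 5 were higher in pre-senescence, 11 in senescence and 7 in the library labelled transformed. With that control 1 was lower, in senescence. The shares of all genes in Ribo-Seq were then 9.64%, 19.0% and 11.5% higher and 15.8%, 24.0% and 10.9% lower. Called higher with both controls were 4 in pre-senescence, 9 in senescence and 0 in the library labelled transformed.

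Of the SREBP regulators, 4 of 13 were called higher in quiescent RNA and 0 lower, with a median of 0.30. These were the genes of the factors themselves and of their retention proteins. INSIG1 was at 68.2 against 5.18 FPKM (13.2-fold), SREBF2 at 74.8 against 19.5 (3.83-fold) and SREBF1 at 36.9 against 14.5 (2.54-fold), and INSIG2 was the other. Against run 2 proliferation, INSIG1 and SREBF2 were called in RNA, and all 4 in Ribo-Seq. In Ribo-Seq, SREBF1 was 5.03-fold higher. SREBF1 RNA was 9.93 FPKM in pre-senescence, 22.1 in run 2 proliferation, 17.6 in senescence and 22.6 in the library labelled transformed. In Ribo-Seq 4 of the 13 were higher in quiescence, 2 in pre-senescence, 4 in senescence (1 lower) and 0 in the library labelled transformed. The shares of all genes higher were 9.59%, 7.55%, 11.6% and 5.52%, and 17.4% were lower in senescence. Against the control of the other run, 0 of the 2 in pre-senescence and 3 of the 4 in senescence were also called, and the lower call ended. That control gave 1 higher in pre-senescence, 4 higher and 2 lower in senescence and 1 higher in the library labelled transformed. The shares of all genes higher were then 9.64%, 19.0% and 11.5%, and 24.0% were lower in senescence. Outside quiescence and within the run, this list had INSIG1 alone called in RNA, in the library labelled transformed (19.6 FPKM, 2.84-fold). Against the control of the other run, 1 gene was lower in pre-senescence (6.96% of all genes) and 2 were higher in senescence (12.4%). In the library labelled transformed 2 were then higher (6.65%), INSIG1 among them.

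The counts for the remaining enzymes of fatty acid synthesis stand beside the shares of all genes given above for each comparison (4.23% higher and 2.50% lower in quiescent RNA, 9.59% and 8.44% in quiescent Ribo-Seq). Of 14 tested in other fatty acid synthesis and elongation, 1 was higher in quiescence, HSD17B12, the ketoacyl-CoA reductase of the elongation cycle (59.8 against 27.7 FPKM), and the median was -0.12. HSD17B12 was at 31.9 FPKM in run 2 proliferation, and against that column its call ended. In Ribo-Seq this list had 1 higher and 1 lower of 14 in quiescence, 1 and 3 in pre-senescence, 4 and 1 in senescence and 1 and 2 in the library labelled transformed. Against the control of the other run these counts were 2 and 4, 1 and 3, 5 and 1, and 2 and 3. The shares of all genes were then 9.71%, 9.64%, 19.0% and 11.5% higher and 11.6%, 15.8%, 24.0% and 10.9% lower. Of the 3 lower in pre-senescence, 1, PTPLB, was called with both controls. The 4 higher in senescent Ribo-Seq, ELOVL4, HSD17B12, PTPLB and FADS3, were so with either control. SCD5, the second stearoyl-CoA desaturase gene, was at 16.5 against 27.0 FPKM, where SCD was at 595 against 49.4. In the library labelled transformed SCD5 was 18.8 FPKM, a log2 difference of -1.44, and ELOVL4 was higher by 1.30. Run 1 proliferation had 27.0 FPKM of SCD5, and against it neither gene was called in RNA. In senescence FADS3, a relative of FADS1 and FADS2, was at 130 FPKM, 2.38-fold above its control, where FADS1 and FADS2 were 1.02-fold higher and 1.25-fold lower.

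Among genes of acetyl-CoA, citrate and NADPH supply, 2 of 10 were higher in quiescent RNA: IDH1, the cytosolic NADPH-forming isocitrate dehydrogenase (73.3 against 23.7 FPKM), and SLC25A1, the mitochondrial citrate carrier (102 against 43.4). SLC25A1 was at 66.9 FPKM in run 2 proliferation, and against that column its RNA call ended. The list as a whole then had 4 of 10 higher (4.68% of all genes). Of fatty acid activation and uptake, 3 of 10 were higher, FABP3 (33.9 against the lowest value of 1.00), DBI (145 against 62.5) and VLDLR (9.63 against 4.24, a call that ended against run 2 proliferation). In Ribo-Seq, 2 of 11 supply genes and 4 of 10 activation and uptake genes were higher in quiescence and 0 lower, with 2 of the 2 and 2 of the 4 also called against run 2 proliferation. That control gave 5 of 10 supply genes higher and 0 lower, and 2 of 10 activation and uptake genes higher and 1 lower. Of all genes, 9.71% were then higher and 11.6% lower. Lists for fatty acid use and storage had counts of 0 in quiescent RNA, where 4.23% of all genes were higher and 2.50% lower, so that lists of this size would hold few calls at the background rate. These were 0 of 13 for glycerolipid assembly, to which LPIN1 belongs by function but in which it was not counted, 0 of 18 for mitochondrial beta-oxidation, 0 of 6 for lipolysis and lipid droplets and 0 of 11 for AMPK and the control of acetyl-CoA carboxylase. Against run 2 proliferation, 2 genes were lower in beta-oxidation, and 1 was higher in each of the other lists (4.29% of all genes lower, 4.68% higher). In beta-oxidation the median RNA difference within the run was 0.12. CPT1A, the entry step into mitochondria, went the other way without being called, at 5.27 against 9.64 FPKM.

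For fibroblast markers in quiescence, the direction turned with the control. Within the run, 2 of 14 were higher in RNA and 8 in Ribo-Seq, with 0 lower. Against run 2 proliferation, 5 were lower in each assay and 0 higher, where 4.29% of all genes were lower in RNA and 11.6% in Ribo-Seq. Between the proliferating columns themselves, 6 of 14 were called higher in run 2 in RNA. DCN, for example, stood at 27.6 FPKM in run 1 proliferation, 82.6 in quiescence and 164 in run 2 proliferation. In pre-senescence 5 of the 14 were lower in RNA and 3 in Ribo-Seq, and 10 and 8 against run 2 proliferation (6.96% and 15.8% of all genes). Their part in the values of the 10 genes was not tested. Of 13 cell cycle genes in quiescence, 13 were called lower in RNA within the run, where their summed level was 436 against 1010 FPKM. Against run 2 proliferation, which summed to 636, 2 were called lower. In senescence the sum was 67.0 against 636, 13 of 13 were lower with either control, and the 10 genes had a median of 0.02. The part of arrest in the level of the 10 genes was not tested.

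The pattern shared by the 10 was averaged after each gene was centred on its own mean log2 RNA level. This mean was 1.53 in quiescence and between -0.50 (run 2 proliferation) and -0.07 (the library labelled transformed) in the other 5 columns. Each gene was then set against the mean of the other 9. Over 6 columns, which share normalization and are dominated by the quiescent one, r was 0.991 for ACSS2 and 0.975 for SCD at the top, 0.779 for LPIN1 and 0.678 for ELOVL5 at the bottom. Among 3549 other genes with at least 2 FPKM in every column and a 2-fold range, the 5 most like the mean had r from 0.993 to 0.970, and MVK, EBP and MMAB were among them. MVK, mevalonate kinase, was at 9.50, 41.3 and 11.9 FPKM in run 1 and 7.64, 9.43 and 12.7 in run 2. In quiescence MVK was 4.35-fold higher, EBP, a sterol isomerase, 2.66-fold and MMAB, an enzyme of cobalamin metabolism, 3.67-fold.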

How the data were processed

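RNA-Seq (9 libraries, poly(A) RNA) and Ribo-Seq (8 libraries) of BJ cells were deposited as 1 table of 9699 transcripts. The authors aligned reads with Bowtie (hg19 and Bowtie are named in the submitters' processing notes), kept unique alignments to the isoform of each gene with the longest coding sequence and computed FPKM values from reads over the whole transcript for RNA-Seq and over the coding sequence for Ribo-Seq. They raised values under 1 to 1 and combined replicates of a run in some columns, in a way not given in the sources used here. All 12 columns were mapped to a condition by title. From these, log2 differences in FPKM were computed with a pseudocount of 0, for genes at 2 FPKM or more in 1 of the columns compared (for TE, in all 4 values). With 1 column per condition no test was run. A call is 2-fold. The calculation was tested on simulated data. Members and lists were chosen with earlier results of these data known. Named genes were the 10 members, up to 3 per list by RNA difference, and 5 by likeness of pattern. Genes named beyond these were chosen after their values were seen. Some genes that the rule names are not reported here. Alternatives were a pseudocount of 1, minimum levels of 0 and 10 FPKM, centring, other cut-offs, the other control and exchanged titles. Python 3.11.15, pandas 2.3.3 and numpy 2.4.6 were used.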

Additional observations from a re-analysis of the deposited data

How the results depend on the processing

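The counts of 9 and 8 genes higher in quiescence, in RNA and Ribo-Seq, ranged from 8 to 9 and from 7 to 9 over the alternatives tried, with 0 lower. Dropping the filter on low values or requiring 10 FPKM moved no count by over 1.5 times and no median by more than the spread between the 2 controls (ELOVL6 was not tested in quiescent RNA at 10 FPKM). Adding 1 FPKM left 1 gene higher in Ribo-Seq of the library labelled transformed, and setting the median of all genes to 0 did the same and made 1 gene higher in pre-senescent TE. The share of all genes called the same way is given in parentheses from here. At 1.5-fold, the genes higher were 1 in quiescent TE (9.14%), 2, 4 and 2 in pre-senescent RNA, Ribo-Seq and TE (5.78%, 16.3% and 12.4%), 2, 2 and 3 in senescence (19.0%, 21.4% and 12.6%), and 4 in RNA of the library labelled transformed (13.2%). With the study's sliding cut-off in local SDs they were 1 in quiescent TE (2.74%), 1 in pre-senescent RNA (3.18%), 1 in pre-senescent TE (2.09%), 0 in senescent RNA and Ribo-Seq (2.40% and 2.62%) and 1 in Ribo-Seq of the library labelled transformed (2.64%), where 1 was lower in TE (6.10%). With the proliferating column of the other run, 1 and 2 genes were higher in pre-senescent RNA and Ribo-Seq (5.31% and 9.64%) and 0 and 0 in the library labelled transformed (6.65% and 11.5%), and the TE medians were -0.25 in quiescence, 0.02 in pre-senescence, 0.40 in senescence and 0.07 in the library labelled transformed. That control also moved 52 of 120 single-gene values by more than the spread between the 2 controls. Of these, 26 changed sign, none of which had been called. The spread was the SD of the control differences over the 10 genes divided by the square root of 2. It was 0.32, 0.40 and 0.22 on the log2 scale for RNA, Ribo-Seq and TE. Changing the control shifts a gene by its own control difference, equally in all 4 comparisons. The 52 are thus the same genes counted once per comparison, and they restate how far the controls differ. Exchanging the senescent and run 2 proliferating Ribo-Seq libraries by itself turns the sign of every senescent Ribo-Seq difference. LPIN1 thus reversed to -1.19, and 0 genes were higher (17.4%) and 1 lower (11.6%) in senescent Ribo-Seq, with a median of -0.27. In senescent TE 2 were lower (21.8%), with a median of -0.18, and in Ribo-Seq of the library labelled transformed 0 were higher (18.1%). Several of these counts lie near the share of all genes. The cause of these shifts was not tested. The counts of the other gene lists against the control of the other run were added after seeing the data.

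No paired analysis was possible because the columns carry no separate numbered replicates, and leaving out a replicate was not run for the same reason. The table gives no read counts, so no counting error was computed, also for the gene with the lowest RNA, ELOVL6.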
